A study of Mus musculus with 12 samples.

Results

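Apoe and 9 further genes of lipid uptake, storage and efflux were described in CD11b dendritic cells, which present antigen to T cells and bear the integrin chain CD11b. The genes were taken by symbol from the deposited count table, and the 10 make up 10 of its 24391 genes: Apoe, Lpl, Cd36, Msr1, Olr1, Soat1, Plin2, Plin3, Abca1 and Abcg1. All 10 passed the filter on low counts. The cells came from wild-type C57BL/6J mice used at 8 to 12 weeks of age, and the series title places them in established lung fibrosis. Every mouse was anaesthetised with xylazine and ketamine and given a replication-deficient adenovirus into the trachea. The virus carried either no insert (AdCL, the control) or the pig gene for biologically active TGF-β1 (AdTGFb1). There were 12 libraries, 3 of each vector in experiment 1 and 3 of each in experiment 3, and each is named by the DC number in its title. AdCL was DC 7, 8 and 9 in experiment 1 and DC 943, 944 and 949 in experiment 3. AdTGFb1 was DC 14, 52 and 54 in experiment 1 and DC 954, 955 and 956 in experiment 3. No source used here gives the sorting gate, the interval since the virus, or whether libraries are of separate animals. The p-values thus reflect only how much the libraries of a group vary, which may be technical.

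Apoe encodes apolipoprotein E, a secreted protein that carries cholesterol and phospholipid. Macrophages and dendritic cells take up lipoprotein and cell debris through scavenger receptors, esterify the freed cholesterol, keep it in droplets coated by perilipins, and export it through ABC transporters to apolipoproteins. The nuclear receptors LXR and PPARγ are known regulators of several of these genes, LXR binding DNA as a dimer with RXR.

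Library totals ran from 10099912 to 15594546 counts, where 3 counts correspond to 0.181 to 0.310 CPM, the reads of a gene scaled to a common library size. The 10 CD11b dendritic cell markers summed to 9576 to 11405 CPM in AdCL and 7929 to 8698 CPM in AdTGFb1 of experiment 1. In experiment 3 they summed to 10204 to 14120 CPM in AdCL and 8866 to 10931 CPM in AdTGFb1. None was at 0 in any group. By the test described below, 5 of the 10 were lower with AdTGFb1 in each experiment (14.1% and 4.46% of all genes). In experiment 1, 2 were higher, and in experiment 3, 1 was higher (10.6% and 1.97% of all genes). By their Ddx3y counts, a gene of the Y chromosome, DC 7, 8, 9 and 14 were from males and the other 8 libraries from females. In experiment 1 sex and vector are therefore largely confounded and cannot be told apart, except through the male AdTGFb1 library DC 14, while experiment 3 was all female. A set of 10 alveolar macrophage markers summed to 85.7 to 207 CPM in AdCL and 1237 to 2525 CPM in AdTGFb1 of experiment 1. In experiment 3 the order was the opposite, with 250 to 718 CPM in AdCL and 111 to 154 CPM in AdTGFb1. The 10 endothelial markers summed to 194 to 647 CPM in AdCL of experiment 1 and to between 38.2 and 189 CPM in the other 3 groups. In these bulk libraries more cells of a type and more RNA per cell cannot be told apart.

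The promoter stretches that hold a repeat or half-site of the kind bound by LXR, PPAR and their partner RXR are shown first, because the transporters, the perilipin and the receptors below are textbook targets of these factors. RefSeq windows of build GRCm38.p6, from 250 bases before to 50 after a transcript start, were found for 7 of the 10 genes, in 9 windows. The search covered both strands for GGTNA repeated after a gap of 5 bases (a DR4-type repeat, 15 bases in all), AGGTCA (a single half-site of 6 bases) and AGGNCA repeated after a gap of 1 base (a DR1-type repeat, 13 bases in all). These were held by 0.718%, 16.3% and 0.381% of all 32851 windows. The half-site can lie inside a DR1-type repeat. The 30-base stretches below run 5′ to 3′ along the gene's strand, with the matched bases in capitals.
Abca1, DR4-type repeat, chr4:53159941-53159970, minus strand: acagcgttTGACCGGTAGTAACCccggcgc
Plin2, half-site, chr4:86670260-86670289, minus strand: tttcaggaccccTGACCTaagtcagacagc
Cd36, half-site, chr5:17836107-17836136, minus strand: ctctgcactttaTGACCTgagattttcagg
Olr1, half-site, chr6:129507323-129507352, minus strand: tttcttagtgaaAGGTCAtgaagcatgact
The Abca1 match, on the strand opposite to the gene, lay 67 to 53 bases before the transcript start of its window. No window of the 10 genes held the DR1-type repeat. The 250 bases before an Apoe start, shown because Apoe changed in both experiments, held none of the 3 motifs.
Apoe, chr7:19699189-19699438, minus strand: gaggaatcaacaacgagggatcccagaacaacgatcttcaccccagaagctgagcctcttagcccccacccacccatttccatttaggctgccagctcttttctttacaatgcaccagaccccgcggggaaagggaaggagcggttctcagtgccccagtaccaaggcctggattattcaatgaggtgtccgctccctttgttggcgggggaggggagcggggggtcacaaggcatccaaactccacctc
A match is a description of letters in these windows and not a measured binding site.

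AdTGFb1 was compared with AdCL, as the design text sets control against exposed mice. Over both experiments 7 of the 10 genes were higher with AdTGFb1 and 0 were lower, by edgeR's quasi-likelihood test at an adjusted p under 0.05. Of all 13221 genes tested, 17.2% were called, 6.78% as higher and 10.4% as lower. The median log2 fold change of the 10 genes was 0.79, beside -0.0020 over all genes tested. Apoe rose most, and Msr1, Lpl, Abcg1, Plin3, Soat1 and Abca1 followed. Plin2, Olr1 and Cd36 did not pass the test. The genes fell into different patterns once the experiments were taken apart. In experiment 1, 9 of the 10 were higher (24.7% of all genes called, 10.6% as higher). In experiment 3, 1 of the 10 was higher, Apoe (6.43% called, 1.97% as higher). No gene of the 10 was called lower in either experiment, beside 14.1% of all genes in experiment 1 and 4.46% in experiment 3. The median of the 10 was 1.24 in experiment 1 and 0.28 in experiment 3.

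**Figure D1:**
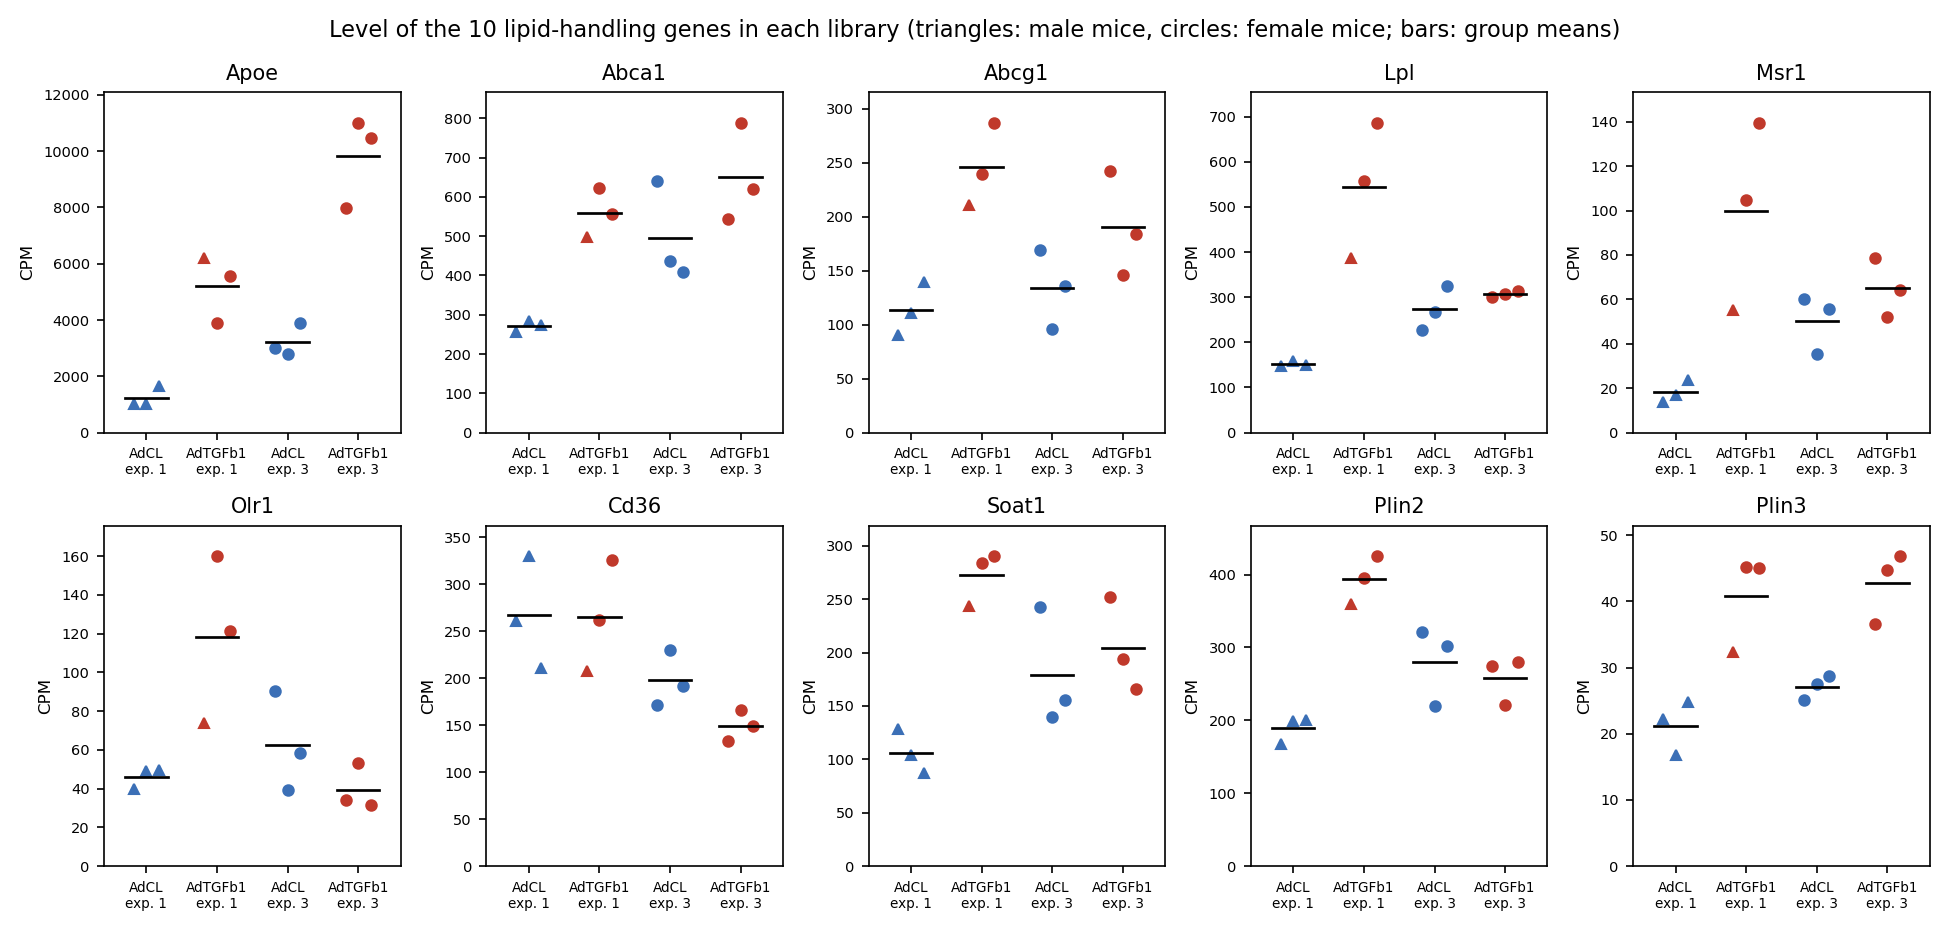
CPM of each of the 10 genes (vertical axis, from 0) in the 12 libraries by vector and experiment. Points are libraries, triangles males and circles females, and bars are group means. For Apoe and Plin3 the red AdTGFb1 points lie above every blue AdCL point over both experiments. For Lpl, Msr1, Olr1, Plin2, Soat1, Abca1 and Abcg1 the groups separate in experiment 1 and overlap in experiment 3.

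Apoe was the most abundant of the 10 and changed in both experiments. In experiment 1 it stood at 1016, 1012 and 1654 CPM in AdCL DC 7, 8 and 9 and at 6192, 3908 and 5565 CPM in AdTGFb1 DC 14, 52 and 54. In experiment 3 it stood at 3017, 2799 and 3885 CPM in AdCL DC 943, 944 and 949 and at 7977, 11002 and 10474 CPM in AdTGFb1 DC 954, 955 and 956. All 6 AdTGFb1 libraries lay above all 6 AdCL libraries, although the lowest AdTGFb1 library, DC 52, was only just above the highest AdCL library, DC 949. Over both experiments Apoe was 3.59-fold higher (2231 ± 1181 against 7520 ± 2817 CPM, mean ± SD, n = 6 each; log2 fold change 1.85 ± 0.16 SE, edgeR adjusted p = 1.03e-06). The effect was 2.09 ± 0.20 in experiment 1 (edgeR adjusted p = 1.21e-07) and 1.60 ± 0.19 in experiment 3 (edgeR adjusted p = 2.25e-05). The difference of these effects, -0.49 ± 0.27, did not pass (edgeR adjusted p = 0.313). Apoe was called in every one of the 20 other settings of the comparison over both experiments, with log2 fold changes between 1.71 and 1.96. Apoe also differed between the experiments themselves, by a log2 fold change of 1.15 ± 0.16 in favour of experiment 3 (edgeR adjusted p = 0.000383; 3.57% of all genes higher there and 2.86% lower).

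The 13 monocyte and macrophage markers, among them the Fc receptor Fcgr1 and the complement genes C1qa, C1qb and C1qc, were higher in sum with AdTGFb1 in both experiments, as Apoe was. Their summed level was 2994 to 3122 CPM and 4993 to 5610 CPM in AdCL and AdTGFb1 of experiment 1, and 4521 to 5430 CPM and 7530 to 8657 CPM in experiment 3. Of these 13 markers, 11 were higher with AdTGFb1 in each experiment (10.6% and 1.97% of all genes), and no marker was at 0 in a group. The effect was called smaller in experiment 3 for 2 of the 13 (2.59% of all genes), C1qc among them (-0.88, edgeR adjusted p = 0.0454). The part of the 13 markers in the Apoe result was not tested. The summed level of the 8 mature migratory dendritic cell markers went the other way. It was 2932 to 4384 CPM in AdCL of both experiments and 899 to 1443 CPM in AdTGFb1. Of these 8, 4 were lower and 1 higher in experiment 1 (14.1% and 10.6% of all genes). In experiment 3, 6 were lower and 0 higher (4.46% and 1.97% of all genes). The 5 genes whose pattern over the 12 libraries was most like that of Apoe, by the root mean square difference of centred log2 CPM, were Fcgr1 (0.251), the integrin Itgb5 (0.284), C1qc (0.288), Tmem119 (0.300) and Zc3h12d (0.328). Fcgr1 and C1qc are in the marker list above. The closest of the other 9 lipid genes, Msr1, was 248th in that order, counting only genes that average 5 CPM or more, at 0.724, followed by Abca1 at 0.738 and Plin3 at 0.766.

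Lpl encodes lipoprotein lipase, which is secreted, binds the cell surface and frees fatty acids from triglyceride-rich lipoprotein. Its level in experiment 1 was 147, 159 and 150 CPM in AdCL DC 7, 8 and 9 and 386, 557 and 686 CPM in AdTGFb1 DC 14, 52 and 54. In experiment 3 it was 226, 268 and 324 CPM in AdCL DC 943, 944 and 949 and 300.4, 307.3 and 313.1 CPM in AdTGFb1 DC 954, 955 and 956. The groups did not overlap in experiment 1, and in experiment 3 all 3 AdTGFb1 values fell within the range of AdCL. The log2 fold change was 1.84 ± 0.18 in experiment 1 (edgeR adjusted p = 1.38e-07) and 0.17 ± 0.17 in experiment 3 (edgeR adjusted p = 0.675). The difference of the effects, -1.67 ± 0.24, passed (edgeR adjusted p = 0.000278). The value of 1.00 ± 0.24 over both experiments (edgeR adjusted p = 0.00724) therefore averages unlike effects.

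The scavenger receptors Msr1 and Olr1, which take up modified lipoprotein, followed a like split. Msr1 was at 14.0, 16.7 and 23.5 CPM in AdCL and 55.3, 105 and 139 CPM in AdTGFb1 of experiment 1, in order of DC number. In experiment 3 Msr1 was at 60.0, 35.3 and 55.6 CPM in AdCL and 78.6, 52.0 and 64.2 CPM in AdTGFb1. Its groups were apart in experiment 1 and overlapped in experiment 3, where AdCL was above AdCL of experiment 1. The effects were 2.46 ± 0.30 (edgeR adjusted p = 2.69e-06) and 0.37 ± 0.28 (edgeR adjusted p = 0.543), and their difference of -2.09 ± 0.40 passed (edgeR adjusted p = 0.00283). Olr1 was at 39.6, 49.3 and 49.7 CPM in AdCL and 73.6, 160 and 121 CPM in AdTGFb1 of experiment 1. In experiment 3 Olr1 was at 90.2, 39.2 and 58.2 CPM in AdCL and 33.8, 53.3 and 31.3 CPM in AdTGFb1. It thus rose in experiment 1 (1.36 ± 0.29, edgeR adjusted p = 0.00119), while in experiment 3 its estimate was below 0 and did not pass (-0.66 ± 0.28, edgeR adjusted p = 0.199). Without the filter on low counts Olr1 was called lower in experiment 3 at the same size of effect (-0.66, edgeR adjusted p = 0.0248). The difference for Olr1 was -2.02 ± 0.40 (edgeR adjusted p = 0.00358). Over both experiments Msr1 was higher (1.40 ± 0.34, edgeR adjusted p = 0.00761) and Olr1 did not pass (0.35 ± 0.33, edgeR adjusted p = 0.534).

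Cd36, a receptor for long-chain fatty acids and oxidised lipoprotein, was the one gene with no call for the vector in any main comparison. In experiment 1 it was at 261, 330 and 211 CPM in AdCL and 207, 262 and 326 CPM in AdTGFb1, with overlapping groups. In experiment 3 it was at 171, 230 and 192 CPM in AdCL and 133, 166 and 149 CPM in AdTGFb1. All 3 AdTGFb1 libraries of experiment 3 lay below all 3 AdCL libraries, as did 12.9% of all genes tested, but the log2 fold change of -0.41 ± 0.18 did not pass (edgeR adjusted p = 0.223). Cd36 was lower in experiment 3 than in experiment 1 by the fit over both vectors (-0.63 ± 0.14, edgeR adjusted p = 0.0116), opposite to Apoe.

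Soat1 encodes the acyltransferase that esterifies cholesterol for storage, and Plin2 and Plin3 encode perilipins, proteins on the droplet surface. Soat1 was at 128, 104 and 86.8 CPM in AdCL and 244, 284 and 290 CPM in AdTGFb1 of experiment 1, and at 243, 140 and 155 CPM and 252, 194 and 166 CPM in experiment 3. Plin2 was at 168, 199 and 201 CPM in AdCL and 360, 396 and 425 CPM in AdTGFb1 of experiment 1, and at 320.6, 219.2 and 301.7 CPM and 274, 221 and 280 CPM in experiment 3. For both genes the groups were apart in experiment 1 and overlapped in experiment 3. Soat1 rose in experiment 1 by 1.36 ± 0.20 (edgeR adjusted p = 2.85e-05), and the effect differed between experiments by -1.17 ± 0.28 (edgeR adjusted p = 0.0130). Plin2 rose in experiment 1 by 1.06 ± 0.16 (edgeR adjusted p = 2.84e-05), and the effect differed by -1.18 ± 0.22 (edgeR adjusted p = 0.00243). In experiment 3 the effects were 0.19 ± 0.20 for Soat1 (edgeR adjusted p = 0.694) and -0.12 ± 0.15 for Plin2 (edgeR adjusted p = 0.770). Over both experiments Soat1 passed (0.77 ± 0.21, edgeR adjusted p = 0.0132) and Plin2 did not (0.47 ± 0.18, edgeR adjusted p = 0.0854). The Soat1 call was lost with sex in the fit (0.55, edgeR adjusted p = 0.0735). It was also lost with the mean centred log2 CPM of the endothelial, epithelial and fibroblast markers in the fit (0.40, edgeR adjusted p = 0.0974). Plin2 passed without AdCL DC 943 (0.58, edgeR adjusted p = 0.0236), without AdCL DC 949 (0.58, edgeR adjusted p = 0.0393) and without AdTGFb1 DC 955 (0.59, edgeR adjusted p = 0.0256). With all libraries it passed by DESeq2 (0.47, DESeq2 adjusted p = 0.0392) and without the filter on low counts (0.47, edgeR adjusted p = 0.0173). It did not pass with sex or structural cell markers in the fit.

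Plin3 behaved unlike Plin2. Its level was 22.2, 16.7 and 24.7 CPM in AdCL and 32.3, 45.2 and 45.0 CPM in AdTGFb1 of experiment 1, and 25.1, 27.6 and 28.7 CPM and 36.6, 44.7 and 46.8 CPM in experiment 3. With Apoe, Plin3 was 1 of 2 of the 10 genes whose 6 AdTGFb1 libraries all lay above all 6 AdCL libraries, against 1.86% of all genes tested. None of the 10 had all 6 below, as 4.46% of all genes had. In experiment 3 alone the same pair had all 3 AdTGFb1 libraries above AdCL, against 11.5% of all genes. It was 1.74-fold higher over both experiments (0.80 ± 0.17, edgeR adjusted p = 0.00301). It rose in experiment 1 (0.94 ± 0.24, edgeR adjusted p = 0.00589), and the estimate in experiment 3 did not pass (0.65 ± 0.24, edgeR adjusted p = 0.116). The effects did not differ beyond their error (-0.29 ± 0.34, edgeR adjusted p = 0.696).

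Abca1 and Abcg1 encode the transporters that pass cholesterol to lipid-poor apolipoprotein and to HDL. Abca1, whose promoter window held the DR4-type repeat shown above, was at 257, 285 and 274 CPM in AdCL and 497, 623 and 557 CPM in AdTGFb1 of experiment 1. In experiment 3 it was at 642, 437 and 408 CPM in AdCL and 543, 788 and 620 CPM in AdTGFb1, and 1 AdCL library, DC 943, reached into the range of AdTGFb1. Abcg1 was at 89.9, 111 and 140 CPM in AdCL and 211, 239 and 287 CPM in AdTGFb1 of experiment 1, and at 169, 95.6 and 136 CPM and 243, 146 and 184 CPM in experiment 3. Over both experiments Abca1 was 1.64-fold higher (0.71 ± 0.15, edgeR adjusted p = 0.00243) and Abcg1 1.76-fold higher (0.81 ± 0.17, edgeR adjusted p = 0.00303). In experiment 1 the effects were 1.04 ± 0.17 for Abca1 (edgeR adjusted p = 8.03e-05) and 1.11 ± 0.21 for Abcg1 (edgeR adjusted p = 0.000465). In experiment 3 they were 0.39 ± 0.17 (edgeR adjusted p = 0.196) and 0.52 ± 0.21 (edgeR adjusted p = 0.172). Abcg1 passed there without the filter on low counts (0.52, edgeR adjusted p = 0.0334). Neither difference between experiments passed, with -0.65 ± 0.23 for Abca1 (edgeR adjusted p = 0.106) and -0.60 ± 0.30 for Abcg1 (edgeR adjusted p = 0.256). Without DC 943 the Abca1 effect in experiment 3 was 0.62 and passed (edgeR adjusted p = 0.0174). Abca1 was also higher in experiment 3 than in experiment 1 (0.54 ± 0.15, edgeR adjusted p = 0.0342), but this call was lost when any 1 of 7 libraries, DC 7, 8, 9, 14, 943, 944 or 955, was left out (adjusted p between 0.0541 and 0.0819) and with sex in the fit (0.23, adjusted p = 0.646).

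**Figure D2:**
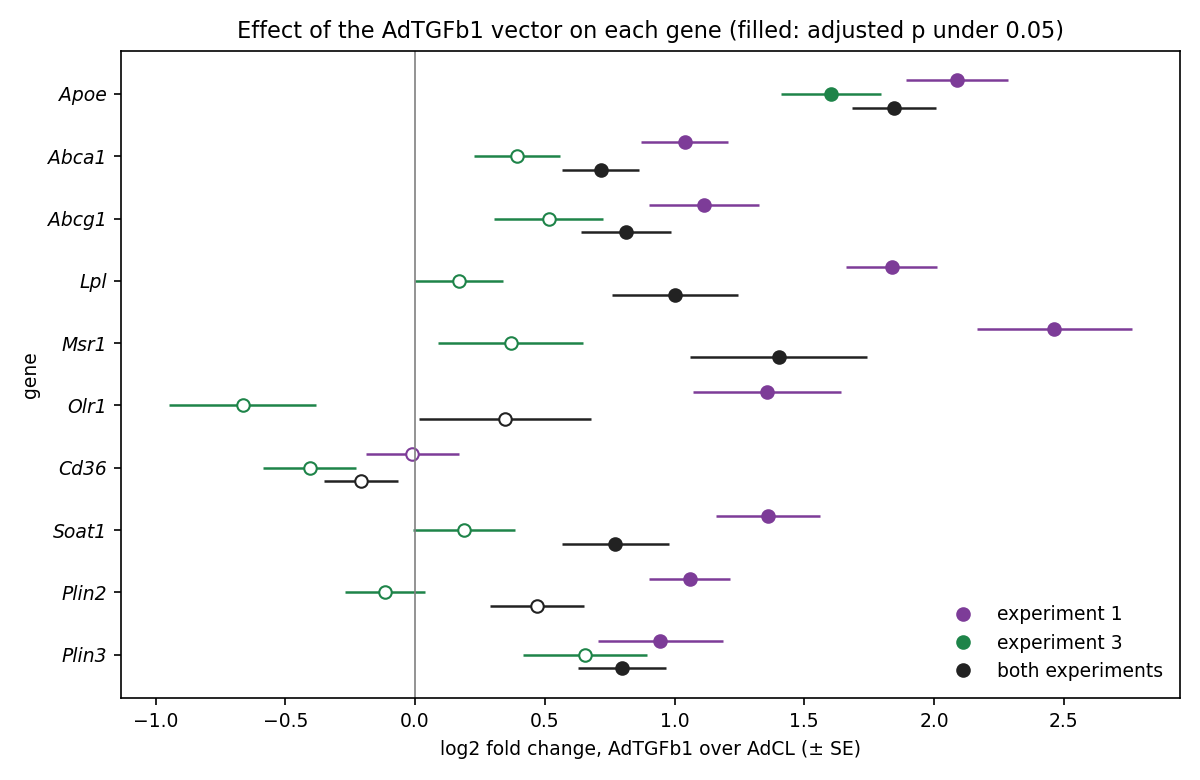
Log2 fold change of AdTGFb1 over AdCL (horizontal axis, ± SE) for the 10 genes within experiment 1, within experiment 3 and over both, with filled circles for adjusted p under 0.05. Apoe is filled in all 3 comparisons, whereas the experiment 3 values of Lpl, Msr1, Olr1, Plin2 and Soat1 lie far to the left of their experiment 1 values.

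The vector's effect differed between experiments for 5 of the 10 genes, Msr1, Olr1, Lpl, Plin2 and Soat1, each smaller in experiment 3. Of all genes tested, 6.02% were called for such a difference, 2.59% as smaller and 3.43% as larger in experiment 3. The alveolar macrophage markers moved with this split. Their part in it was not tested, since the fit given below cannot separate the markers from the split. Of the 10, 5 were higher with AdTGFb1 in experiment 1, 2 were lower in experiment 3, and 5 were called as differing between experiments, all smaller in experiment 3. In experiment 1, Chil3 stood at 977, 2040 and 1663 CPM in DC 14, 52 and 54, where it made up most of the sum, against 13.5 to 104 CPM in AdCL. Atp6v0d2 stood at 118 to 193 CPM against 11.7 to 22.3 CPM and Ctsk at 46.4 to 103 CPM against 4.03 to 4.68 CPM. Siglecf, a defining surface marker, stood at 10.5 to 11.7 CPM against 6.82 to 8.16 CPM. These and Ear2, Krt79 and Plet1 were higher without overlap. Ear1 overlapped between the vectors, and Fabp1 went the other way, at 0 to 0.143 CPM against 0.0995 to 4.37 CPM. Car4 was at 7.20 CPM in DC 14, below all 3 AdCL libraries (12.3 to 22.1 CPM). In DC 52 and 54 it was at 43.0 and 61.7 CPM. DC 14 had the lowest marker sum of the 3 AdTGFb1 libraries in experiment 1. It also had the lowest level of each of the 10 genes but Apoe, of which it had the highest. DC 14 was the only male among these 3, so sex and marker level cannot be told apart here. DC 943 had the highest marker sum of the AdCL libraries of experiment 3, with Chil3 at 488 of its 718 CPM. Ear1, Fabp1, Atp6v0d2, Plet1 and Ctsk were also highest in DC 943 of these libraries, while Siglecf, Ear2 and Car4 were lowest. It had the highest Msr1, Olr1, Plin2, Soat1, Abca1 and Abcg1 among them, but the lowest Lpl, Cd36 and Plin3. With the alveolar macrophage markers as a term, 0 of the 10 genes and 0 of all genes were called for the difference between experiments. For experiment 1 the term was -1.18, -0.78 and 0.011 under AdCL and 0.37, 1.52 and 1.29 under AdTGFb1. For experiment 3 it was 0.87, 0.098 and 0.71 under AdCL and -1.34, -0.82 and -0.76 under AdTGFb1. The term thus moved with the difference under test, and this fit cannot tell them apart. The loss of calls is therefore no test of the markers' part. At an unadjusted p under 0.05 this edgeR fit held 701 genes, 0 of them among the 10. In that fit the difference was 0.17 ± 0.79 for Msr1, 0.43 ± 0.76 for Olr1, -0.44 ± 0.47 for Plin2, -0.96 ± 0.54 for Lpl and -1.32 ± 0.67 for Soat1. The errors were thus larger than without the term, the estimates of Msr1 and Olr1 turned, those of Plin2 and Lpl moved toward 0, and that of Soat1 did not. In the same kind of fit Apoe passed in experiment 1 (1.78, adjusted p = 0.00286) and in experiment 3 (1.91, adjusted p = 0.00175). In experiment 1, 3 of the 10 genes passed, Apoe, Lpl and Soat1, beside 327 of all 13221 genes. Over both experiments 8 of the 10 passed with that term, Plin2 included. Of all 13221 genes, 2959 were called in that fit, beside 2271 without the term.

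**Figure D3:**
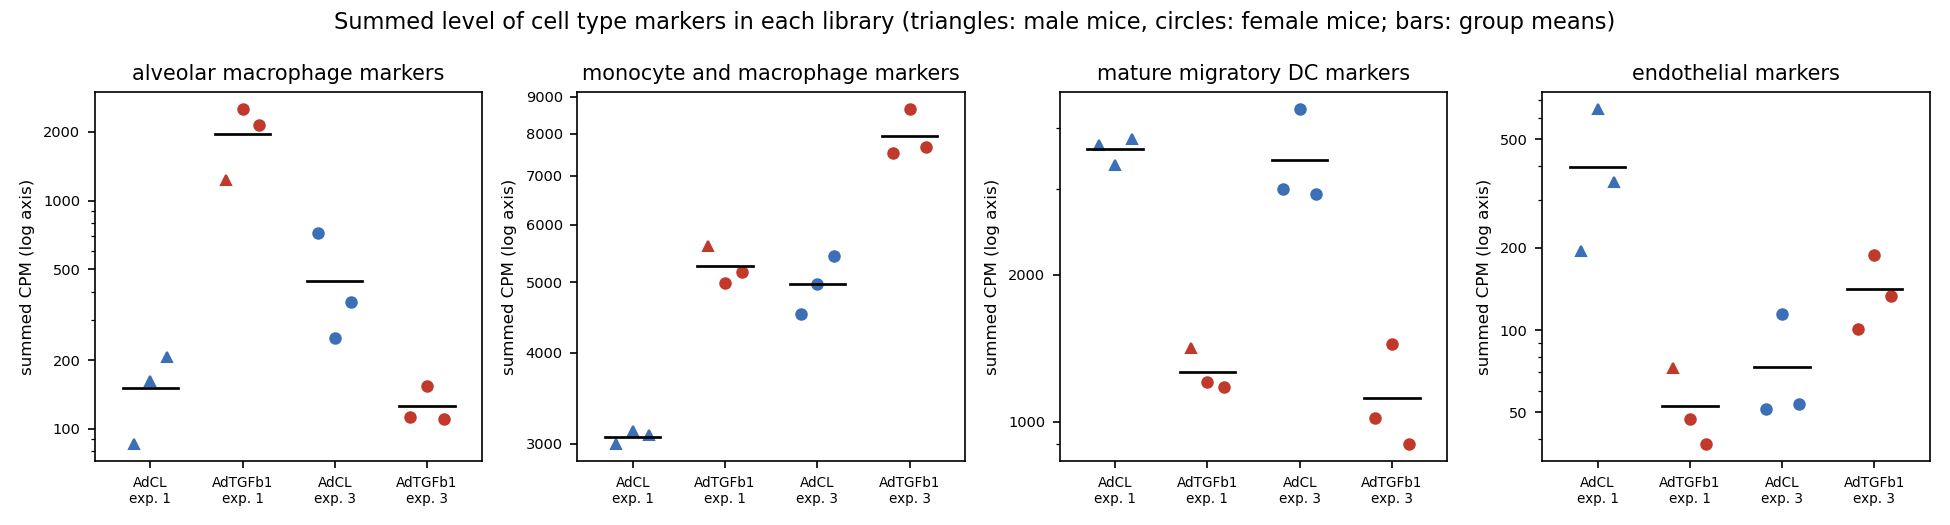
Summed CPM (log axis) of 4 marker lists in the 12 libraries by vector and experiment, triangles males, circles females and bars group means. The alveolar macrophage sum is higher with AdTGFb1 in experiment 1 and lower in experiment 3, and the monocyte and macrophage sum is higher with AdTGFb1 in both.

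Sex and structural cell markers also differed between the vectors in experiment 1, and their part in the results was not tested apart from the fits given here. For each of the 9 genes called in experiment 1, all 3 AdTGFb1 libraries, the male DC 14 included, lay above all 3 male AdCL libraries. Of all genes, 18.8% had all 3 AdTGFb1 libraries above AdCL, and 21.6% all 3 below, among them 0 of the 10. DC 14 was 1 of the libraries that gave these calls, so its place above AdCL is no separate comparison within males. With sex as a term, 7 of the 10 genes passed in experiment 1, all of the 9 but Olr1 (0.67, adjusted p = 0.247) and Plin3 (0.61, adjusted p = 0.259), and 1 of the 10, Lpl, passed for the difference between experiments (-1.17, adjusted p = 0.0198). Of the 10 endothelial markers 9 were lower with AdTGFb1 in experiment 1 and 0 were called in experiment 3. With the structural cell markers as a term, Apoe, Lpl and Abca1 passed in experiment 1 and 0 of the 10 genes for the difference. Of all 13221 genes, 340 and 35 were called in these fits. With sex as a term, 1296 were called in experiment 1 and 157 for the difference. The 6 adipocyte markers, of cells also rich in Lpl, Cd36 and perilipins, lay under 1 CPM in every library, 3 of them at 0 in all.

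Between genes, levels were compared per kilobase of the principal transcript, as the mean over the 12 libraries. Apoe stood at 3462 ± 2447 CPM per kb (SD, n = 12), and its lowest library (718) was above the highest library of any other of the 10 genes (225, Plin2). Plin2 followed at 149 ± 43.9, Lpl at 77.4 ± 39.6, Cd36 at 64.7 ± 19.0, Abca1 at 48.2 ± 16.3, Msr1 at 40.9 ± 25.7, Abcg1 at 29.3 ± 10.8, Soat1 at 22.8 ± 8.41, Olr1 at 18.6 ± 11.0 and Plin3 at 9.05 ± 2.86 CPM per kb. Below Apoe, the library ranges of each pair of neighbours in this order overlapped, and the order changed with the group. Over both experiments, Cd36 was above Lpl in AdCL (68.4 against 51.6 CPM per kb) and below it in AdTGFb1 (61.0 against 103 CPM per kb), and Msr1 was above Abca1 in AdTGFb1 of experiment 1 (70.1 against 54.5 CPM per kb). No pair among the 10 genes ran closer over the libraries than Abcg1 and Plin2 (root mean square difference of centred log2 CPM 0.270), and none was further apart than Apoe and Cd36 (1.42).

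The other genes of these pathways were read from 9 lists, whose counts stand beside 6.78% of all genes higher and 10.4% lower over both experiments, 10.6% and 14.1% in experiment 1, and 1.97% and 4.46% in experiment 3. Of the 13 LXR receptor and target genes tested outside the 10, 1 was higher and 1 lower over both experiments. Rxra, the dimer partner of LXR and PPAR, rose 2.12-fold (edgeR adjusted p = 0.00604), and Arl4c, a small GTPase, fell (-0.41 ± 0.11, edgeR adjusted p = 0.0121). In experiment 1, 3 of these 13 were higher and 1 lower. In experiment 3, 0 were called, and Rxra was at 0.47 (edgeR adjusted p = 0.396). The LXR genes Nr1h3 (0.16, adjusted p = 0.727) and Nr1h2 (-0.09, adjusted p = 0.692) did not pass, at 18.9 ± 8.09 and 95.6 ± 17.0 CPM in AdCL. Apoc1, Apoe's neighbour gene, was at 0 to 1.96 CPM. Apoc2 was at 0 to 2.89 CPM and not tested. Of 9 PPAR receptor and target genes 2 were higher and 1 lower. The coactivator Ppargc1b rose from 10.1 ± 5.92 to 32.4 ± 10.8 CPM (1.73, edgeR adjusted p = 0.00546) and the carnitine acyltransferase Cpt1a from 73.5 ± 13.1 to 110 ± 13.4 CPM (0.59, edgeR adjusted p = 0.00581). The kinase Pdk4 fell from 5.33 ± 2.89 to 0.717 ± 0.675 CPM (edgeR adjusted p = 0.0162). In experiment 1, 3 of these 9 were higher and 1 lower, and in experiment 3, 0 were called. The Ppargc1b effect was 2.81 in experiment 1 and 0.69 in experiment 3 (edgeR adjusted p = 0.361 there). It differed between them (-2.12, edgeR adjusted p = 0.0226), so its value over both experiments averages unlike effects. Pparg itself did not pass (-0.45, adjusted p = 0.153).

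Of 17 other uptake receptors 3 were higher and 2 lower. The scavenger receptor Stab1 (0.88, edgeR adjusted p = 0.000174) and the fatty acid transporter Slc27a1 (0.88, edgeR adjusted p = 0.00927) rose, and the lipoprotein receptor Lrp8, which binds ApoE, fell (-1.27, edgeR adjusted p = 6.27e-05), as did Cxcl16 (-0.52, edgeR adjusted p = 0.00883), a chemokine that also binds oxidised lipoprotein. Of 23 droplet and triglyceride genes 1 was higher and 2 lower. Hilpda, an inhibitor of triglyceride breakdown, fell in both experiments, from 185 ± 24.6 to 77.8 ± 25.8 CPM over both (-1.26, edgeR adjusted p = 0.000106). Dgat1, the last enzyme of triglyceride synthesis, fell from 105 ± 25.7 to 59.3 ± 15.9 CPM (-0.85, edgeR adjusted p = 0.00164), and Agpat2, of an earlier step, rose from 4.48 ± 3.18 to 10.9 ± 1.45 CPM (1.43, edgeR adjusted p = 0.0162). Hilpda (edgeR adjusted p = 0.00352) and Dgat1 (edgeR adjusted p = 0.00173) also fell within experiment 1, where Plin2 and Plin3 rose. Of 21 genes of cholesterol handling 1 was higher and 1 lower, the lysosomal lipase Lipa (0.40, edgeR adjusted p = 0.0250) and the sterol transfer protein Gramd1a (-0.67, edgeR adjusted p = 0.00471). The Lipa call was lost without DC 9 (edgeR adjusted p = 0.0528), without DC 14 (edgeR adjusted p = 0.0562) and without DC 54 (edgeR adjusted p = 0.0801).

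Of 9 lipases and lipoprotein lipase partners 2 were higher and 1 lower. The phospholipases Pla2g15 (1.09, edgeR adjusted p = 6.83e-05) and Pla2g7 (1.32, edgeR adjusted p = 0.000357) rose, and Furin, a protease that cleaves lipoprotein lipase, fell (-0.60, edgeR adjusted p = 0.00369). The Pla2g7 effect was 1.99 in experiment 1 and 0.65 in experiment 3, and it differed between them (-1.33, edgeR adjusted p = 0.00418). Gpihbp1, the endothelial anchor of lipoprotein lipase, was at 4.03, 21.5 and 8.46 CPM in AdCL of experiment 1 and at most 2.80 CPM in the other 9 libraries, and the endothelial markers were highest in the same group. Of 20 fatty acid oxidation genes 1 was higher, Cpt1a, and 1 lower, the carrier Slc25a20 (-0.83, edgeR adjusted p = 0.0156; 0.0559 without DC 944). In experiment 1, 5 of these 20 were higher and 0 lower, and in experiment 3, 0 were called. Of 18 genes of sterol synthesis 0 were higher and 1 lower over both experiments. The lower one was Srebf2, the factor that drives the pathway (-0.58, edgeR adjusted p = 0.000753). In experiment 1, 9 of these 18 were higher and 1 lower, and in experiment 3, 0 were higher and 1 lower, with 3 called for a smaller effect in experiment 3. The 9 became 4 without DC 7, 5 without DC 8, 3 without DC 52, 4 without DC 54 and 0 with sex or either marker list as a term. The median of the sterol list was 0.72 in experiment 1 and -0.35 in experiment 3, where the all-gene medians were -0.03 and 0.0028.

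Of 9 genes known from lipid-associated macrophages, 5 were higher over both experiments and 0 lower. The lipid-sensing receptor Trem2 rose from 26.1 ± 10.5 to 71.0 ± 18.9 CPM (1.46, edgeR adjusted p = 0.000872), Gpnmb from 55.1 ± 68.1 to 270 ± 179 CPM (2.72, edgeR adjusted p = 0.00340) and the protease Ctsl from 65.6 ± 18.5 to 147 ± 52.7 CPM (1.13, edgeR adjusted p = 0.000441). Spp1, the matrix protein osteopontin, also passed (1.22, edgeR adjusted p = 0.0179), but its effect was 2.28 in experiment 1 and 0.15 in experiment 3 and differed between them (-2.14, edgeR adjusted p = 0.00135). Without DC 7, 8 or 9 in turn its adjusted p over both experiments was 0.0630, 0.0536 and 0.0614. The 5 became 3 without DC 7 or without DC 8, and 3 with sex or structural cell markers as a term. In experiment 1, 6 of the 9 were higher, and in experiment 3, 1 was higher, Ctsl, and 2 lower. Within experiment 3, Trem2 (0.82, edgeR adjusted p = 0.0935) and Gpnmb (1.48, edgeR adjusted p = 0.143) did not pass. Agpat2, Apoc2, Ctsl, Cxcl16, Furin, Gramd1a, Nr1h3, Pla2g7, Spp1 and Stab1 share exon sequence with another annotated gene, and because no source used here gives the strand setting of the counting, their values are uncertain to that extent. None of the 10 lipid-handling genes shares exon sequence in this way.

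**Figure D4:**
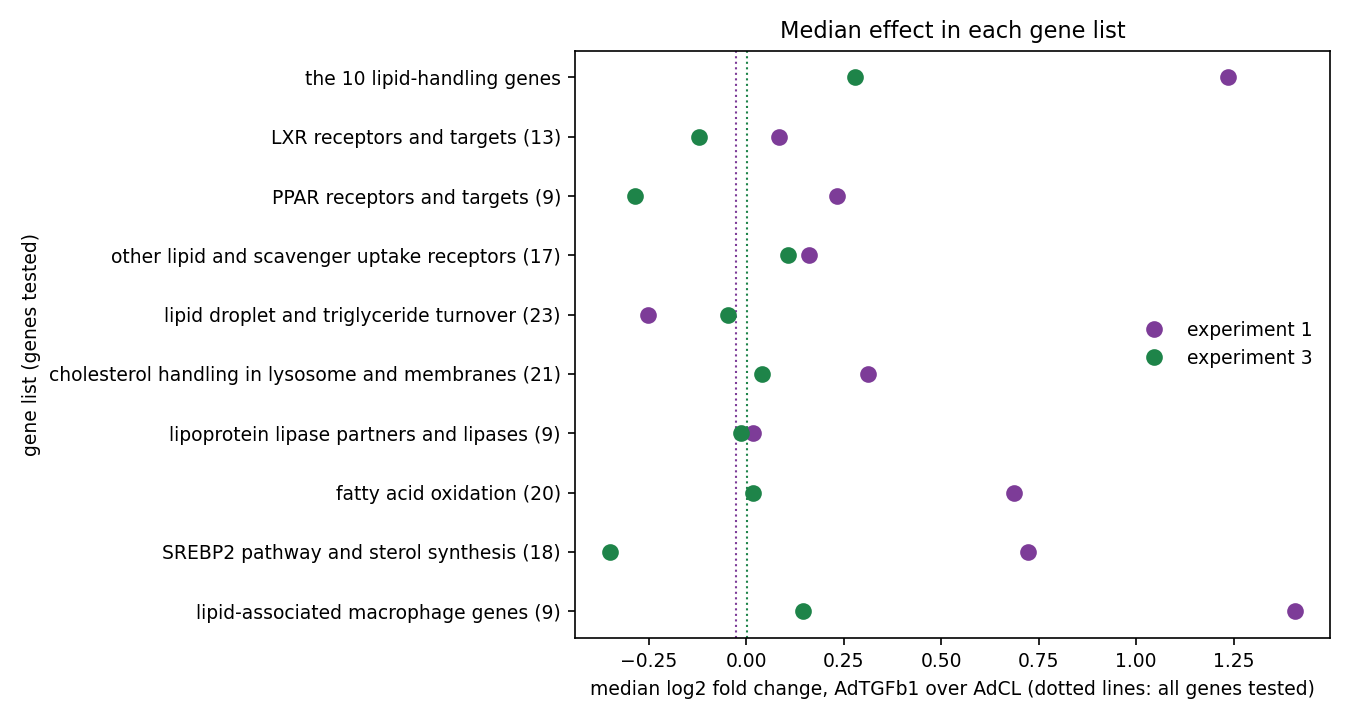
Median log2 fold change of AdTGFb1 over AdCL (horizontal axis) in the 10 lipid-handling genes and 9 further lists, with the number of genes tested, for experiment 1 and experiment 3; dotted lines are the medians of all genes tested. The 10 genes stand at 1.24 and 0.28, and the sterol synthesis list at 0.72 and -0.35.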

How the data were processed

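RNA of the 12 libraries was, per the labels' protocols, enriched for poly(A) and made into stranded libraries. The submitters' processing notes name Trim Galore 0.4.1, cutadapt 1.9.1, STAR 2.5.0c, HTSeq, DESeq2 and build mm9. The deposited table holds raw read counts per gene symbol. The annotation used for counting is not given in the sources used here.

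edgeR 4.0.16 in R 4.3.3 (TMM, filterByExpr on the 4 groups, quasi-likelihood F test, two-sided, Benjamini-Hochberg over 13221 genes) fitted the vector with the experiment as an additive term, and a model of the 4 groups for the effects within experiments and their difference. The SE is the effect divided by the square root of F. CPM use TMM-scaled library sizes; limits from 3 counts cover counting error only. The fit was tested on simulated data. RefSeq tables gave promoters, and the M21 annotation (build GRCm38, not that of the counts) gave transcript lengths and exon overlaps. Sex was read from Ddx3y.

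Named are the 10 genes, up to 4 called genes per list (smallest adjusted p, mean of at least 1 CPM), 6 fixed genes and the 5 most like Apoe (mean of at least 5 CPM). Genes of the marker lists named beside them were chosen after their values were seen. The genes, lists and tests were chosen with earlier results of these data known. The alternatives were other size factors, low-count filters, DESeq2 1.42.0, no experiment term, terms for sex or markers, and leaving out each library. A marker term is the mean over the markers of their log2 CPM, each centred on its mean over the 12 libraries. It thus weighs all markers alike, unlike the summed CPM. The structural term pools the endothelial, epithelial and fibroblast lists.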

Additional observations from a re-analysis of the deposited data

Results flagged for a closer look

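For Olr1, AdCL DC 943 stood apart from the other AdCL libraries at 90.2 CPM, by Dixon's test over the 6 AdCL libraries. The same test was made in 20 groups of 6 libraries, and chance flags about 1 group in 20.

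The effect of AdTGFb1 differed between the experiments by the test of the difference (experiment 3 minus experiment 1, log2) for Lpl (-1.67), Plin2 (-1.18), Soat1 (-1.17), Msr1 (-2.09) and Olr1 (-2.02). Among the other named genes it differed for Ppargc1b (-2.12), Pla2g7 (-1.33), Spp1 (-2.14), C1qc (-0.88) and Gpihbp1 (6.94). The Gpihbp1 value is no bound on a fold, since AdCL of experiment 3 held 0, 3 and 2 counts of it.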

How the results depend on the processing

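No paired analysis was possible because the groups share no replicate numbers in the labels. Over both experiments the number of the 10 genes called stayed between 6 and 8 in the 20 alternatives. All genes called, 2271, became 1501 with sex as a term and 1426 with structural cell markers. Within experiment 1, 3264 genes became 1296 with sex, 327 with alveolar macrophage markers and 340 with structural cell markers, and 9 of the 10 became 3 with either marker term. Within experiment 3, 850 became 260 with alveolar macrophage markers and ran from 498 (without DC 956) to 871 when 1 library was left out (521 without DC 944). The 1 gene of the 10 became 3 without the low-count filter, with Abcg1 higher and Olr1 lower added, and 1 to 2 when 1 library was left out (2 without DC 943). For the difference between experiments, 796 became 1222 without the filter, 1286 with DESeq2, 157 with sex, 0 with alveolar macrophage markers, 35 with structural cell markers and 530 (without DC 52) to 956 with 1 library left out. The 5 of the 10 became 1 with sex and 0 with either marker term. For experiment 3 against 1, 850 became 1346 with DESeq2, 547 with sex and 1538 with alveolar macrophage markers. The cause was not tested.

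Directions also turned. Over both experiments these were those of Olr1 (-0.18 with sex, -0.075 with structural cell markers), Apoc1 (-0.69 with structural cell markers) and Gpihbp1 (2.25 with sex, 0.25 with alveolar macrophage markers, 2.34 with structural cell markers, -1.28 to 0.99 with 1 library left out). Within experiment 1, Cd36 was near 0 and became 0.024 with a mean of at least 1 CPM, 0.021 with alveolar macrophage markers, 0.44 with structural cell markers and -0.18 to 0.20 with 1 library left out, and Gpihbp1 became 0.36 with structural cell markers. Within experiment 3, Plin2 became 0.24 and Olr1 0.49 with alveolar macrophage markers, and Spp1 ran from -0.095 to 0.31 with 1 library left out. For the difference between experiments, 6 of the 10 genes turned with alveolar macrophage markers. Apoe became 0.13, Abca1 0.22, Abcg1 0.52, Plin3 0.62, Msr1 0.17, Olr1 0.43, and also Spp1 0.37. Abcg1 became 0.11 with structural cell markers and Plin3 0.047 with sex. The share of calls that were higher fell from 42.8% to 31.8% (alveolar macrophage markers) and 30.3% (structural cell markers) in experiment 1, and from 30.7% to 18.1% (alveolar macrophage markers) in experiment 3. Over both experiments the calls of Arl4c, Pdk4, Cxcl16, Slc27a1, Lipa and Spp1 were lost with sex and with structural cell markers as terms, those of Cpt1a, Agpat2, Gramd1a and Slc25a20 with structural cell markers, and those of Stab1, Cxcl16, Gramd1a and Lipa without the experiment term.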
